A study of Mus musculus with 42 samples.

Results

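The genes described here encode the proteins of the cytosolic ribosome. They were chosen by symbol: genes whose name starts with Rpl or Rps followed by a digit, p or a, without the ribosomal S6 kinases (names starting with Rps6k), and typed as protein-coding in both deposited count tables. The rule found 107 of the 35275 genes listed. Of these, 43 encode large subunit proteins, 31 small subunit proteins and 3 proteins of the stalk, 77 subunit genes in all. A further 9 are paralogs of subunit genes, and 20 carry names of the pseudogene type (ending in -ps and a number) although the table types them as protein-coding. The last, Rps19bp1, matches the rule by its symbol but encodes a binding partner of a ribosomal protein. Another 231 genes with symbols of this kind are typed as pseudogenes and were not members.

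Cerebellum of male C57/BL6NTac mice (strain C57BL/6 in the sample labels) was profiled by RNA sequencing in 6 groups of 5 libraries each. Feeding regimens began at 3 months of age and lasted 3 months: food at all times (AL), no food for 16 h of each day (IF16), or food and no food in alternation, 24 h each (EOD). Tissue of these groups was taken at 6 months. In the refed groups (labelled in the manner of AL.R_rep1, IF16.R_rep1 and EOD.R_rep1) the same regimens were followed by 2 months with food at all times, and the mice were 8 months old at the end. Refed AL was thus never fasted. Water was always available. The libraries are numbered within their group, and nothing in the labels ties a number to one mouse, so p-values measure the spread between these samples, which may in part be technical.

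Ribosomal proteins are assembled with ribosomal RNA in the nucleolus into a small subunit, which reads the mRNA, and a large subunit, which joins amino acids. Their mRNAs are among the most abundant of most cells and belong to the class that starts with a run of pyrimidines, through which nutrient signals acting on mTORC1 set how much of each mRNA is translated. RNA sequencing reads the amount of these mRNAs and not their translation. In neurons some of these mRNAs are also carried into axons and dendrites, and cerebellar tissue is dominated by the small, densely packed granule cells.

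The sequence around the start of the gene is shown for 6 members named below, as it can carry the pyrimidine run for which this class of mRNA is known. RefSeq (GRCm38.p6) gave a start for 66 of the 107 members and for 57 of the 77 subunit genes. Each line gives 60 bases before to 20 bases after the RefSeq start, 5′ to 3′, and capitals mark runs of at least 8 C or T.
Rpl38 (chr11:114668520-114668599, plus strand): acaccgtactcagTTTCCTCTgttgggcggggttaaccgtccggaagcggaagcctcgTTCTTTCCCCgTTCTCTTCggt
Rps27 (chr3:90213629-90213708, minus strand): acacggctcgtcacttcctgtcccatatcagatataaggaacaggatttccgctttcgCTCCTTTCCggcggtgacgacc
Rps26 (chr10:128626487-128626566, minus strand): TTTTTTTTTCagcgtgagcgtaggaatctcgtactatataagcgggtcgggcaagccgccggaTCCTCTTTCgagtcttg
Rpl41 (chr10:128549149-128549228, minus strand): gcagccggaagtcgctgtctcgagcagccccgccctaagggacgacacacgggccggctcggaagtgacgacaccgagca
Rps28 (chr17:33824543-33824622, minus strand): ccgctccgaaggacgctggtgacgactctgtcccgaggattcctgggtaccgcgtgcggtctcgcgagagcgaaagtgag
Rps3a1 (chr3:86142649-86142728, minus strand): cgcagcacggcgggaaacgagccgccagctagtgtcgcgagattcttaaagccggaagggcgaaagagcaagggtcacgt
Rpl38, Rps27 and Rps26 have such a run at or beside the start, and Rpl41, Rps28 and Rps3a1 have none in the bases shown. Rpl37 and Rps21, whose sequences are not shown, also have none in the same stretch. A run of at least 8 C or T on the gene's strand, within 25 bases on either side of the start, was found in 30 of the 57 subunit genes (52.6%), against 22.3% of 27025 genes with a RefSeq start. The letters CCGGAAG, searched on both strands from 250 bases before to 50 after the start, occurred in 42.1% of the subunit genes and 9.9% of all genes. For GGGCGG, the core of the GC box, the shares were 61.4% and 38.2%, and for AAGATGGC they were 8.8% and 3.2%. TATAAA was found in 10.5% of the subunit genes and 15.7% of all genes. The last letters of CCGGAAG can be the first of AAGATGGC, and each motif was counted on its own. Matches of letters are descriptions and were not tested for binding. The absence of a run in Rpl41, Rps28, Rps3a1, Rpl37 and Rps21 holds for the RefSeq start used.

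Total counts per library lay between 26799825 and 36167435. Of the 107 members, 93 passed the filter on low counts in each table, 8 of them with -ps names. The 14 that did not pass were Rpl10l, Rpl39l and 12 -ps names, and none of them reached more than 12 counts in a library. Ribosomal protein genes have many processed copies in the genome, so reads of a gene and of its copies are hard to tell apart and single counts are uncertain. The counts on the 231 typed pseudogenes followed the members across the 15 libraries at the end of the regimens (Pearson r = 0.918, Spearman rho = 0.697, r = 0.809 without the 2 farthest libraries) and less closely after refeeding (r = 0.377, rho = 0.498, r = 0.345). These are descriptions over libraries that share their depth and composition.

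Levels of different genes were compared in FPKM, the authors' values per length and library total, as the mean of the 6 group means. The median subunit gene stood at 170 FPKM, with a median of 193 for the small subunit, 154 for the large subunit and 157 for the stalk. Of the 77 subunit genes, 58 were at 100 FPKM or more and 7 at 300 FPKM or more. Rplp1, an acidic protein of the stalk that recruits elongation factors, was highest at 504 FPKM, followed by Rps27, a zinc-binding small subunit protein, at 494 and Rps14, a protein of the small subunit's platform, at 393. At the low end, Rpl24 was listed at 0.967 FPKM, Rpl23a at 11.3 and Rpl35 at 15.7, although each is a core protein of the large subunit. Of ribosomal protein genes outside the symbol rule, Fau was between 295 and 409 FPKM in the group means, and Gnb2l1 (also called Rack1) between 30.7 and 38.5. Handling of reads that map to several places is not given in the sources used here. FPKM also divides by the annotated gene length, which is 736 bases for Fau and 4456 for Gnb2l1. Ranks between genes therefore depend in part on that length. Among the paralogs the median was 16.5 FPKM, with Rpl22l1 highest at 104 and Rpl36al at 50.5. The lowest was Rpl10l, which had no count in any of the 30 libraries, as had 6 -ps names.

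At the end of the regimens the members took 0.990 to 1.87% of all counts. In AL the 5 libraries gave 1.30, 1.29, 1.41, 1.87 and 1.57%. IF16 libraries were at 1.84, 1.42, 1.33, 1.35 and 1.34%. In EOD the shares were 1.31, 1.26, 1.51, 0.990 and 1.41%. The groups overlapped across most of their range, with AL replicates 4 and 5 and IF16 replicate 1 high and EOD replicate 4 low. After refeeding the range was narrower. Refed AL libraries were at 1.16, 1.16, 1.16, 1.18 and 1.18%, refed IF16 at 1.06, 1.17, 1.13, 1.16 and 1.09%, and refed EOD at 1.15, 1.29, 1.24, 1.22 and 1.30%. In refed EOD 4 of 5 libraries lay above every refed AL and refed IF16 library, and replicate 1 did not. As these are bulk samples, more of a cell type rich in these mRNAs and more of the mRNAs per cell cannot be told apart.

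**Figure D1:**
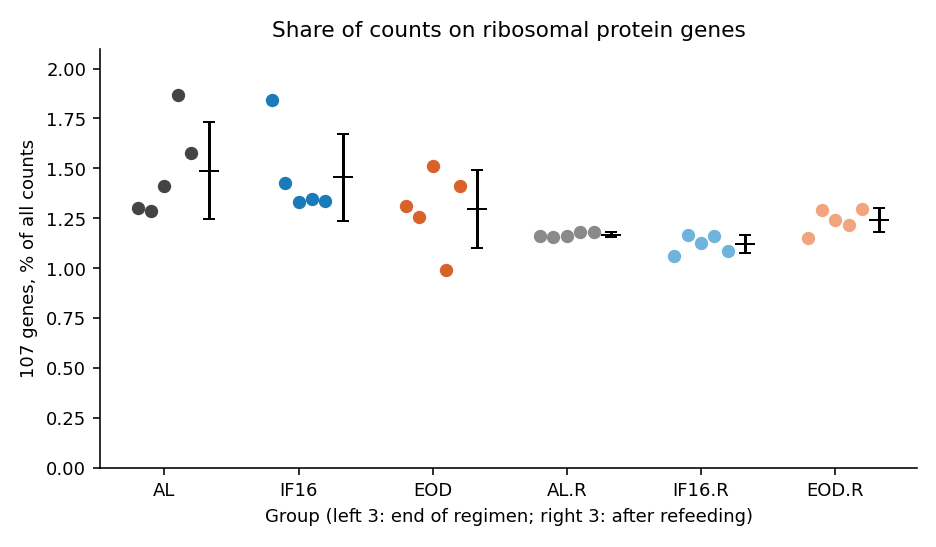
Share of each library's counts that fell on the 107 genes (y axis, percent) in the 6 groups (x axis). Points are the 5 libraries in replicate order, and bars are the mean ± SD: the shares spread from 0.990 to 1.87% at the end of the regimens and from 1.06 to 1.30% after refeeding.

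No member was called at the end of the regimens (edgeR quasi-likelihood test, Benjamini-Hochberg adjustment over all genes, adjusted p under 0.05). In IF16 against AL, 0.0483% of all genes were called (0.0362% higher). Among the members, 1 had an unadjusted p under 0.05 in the lower direction (5.57% of all genes) and none in the higher direction (4.35%). DESeq2 also called no member here, nor in the other comparisons of this table. The members' median log2 fold change was -0.033 beside -0.0062 over all genes tested, and 35 of 93 were above 0 (48.7% of all genes). The sign of this median depended on single libraries: it was 0.063 without AL replicate 4 (71 of 93 above 0) and -0.133 without IF16 replicate 1 (9 of 94). The highest were Rpl24 at 0.465 and Rps26-ps1 at 0.30, and the lowest Rpl3l at -0.48 and Rpsa-ps10 at -0.45. Rpsa-ps10, a copy of the laminin receptor gene, was the 1 member whose IF16 and AL libraries did not overlap (0.694% of all genes did not overlap in this lower direction and 0.857% in the higher).

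In EOD against AL 0.0664% of genes were called (0.0543% higher), none of them a member, and 3 members had an unadjusted p under 0.05, all lower (7.4% of all genes, and 7.02% in the higher direction). The median over the members was -0.19 beside -0.0178 over all genes, and 4 of 93 were above 0, where 46.7% of all genes were. No member had groups that did not overlap (1.36% of all genes higher and 1.53% lower). The highest were Rpl24 (0.36) and Rps29 (0.15), and the lowest Rps10-ps1 (-0.66) and Rpl27-ps3 (-0.46). EOD against IF16 shares its EOD libraries with that comparison. It called no gene, the members' median was -0.15 and 6 of 93 were above 0 (49.8% of all genes). An unadjusted p under 0.05 was found for 1 member, in the lower direction (1.86% of all genes, and 1.76% in the higher). Rpl35 (0.33) and Rpl3l (0.29) were highest, and Rps26-ps1 and Rpl27-ps3 (both -0.38) lowest. Rpsa-ps10 was again the 1 member without overlap, here higher in EOD (0.314% of all genes).

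**Figure D2:**
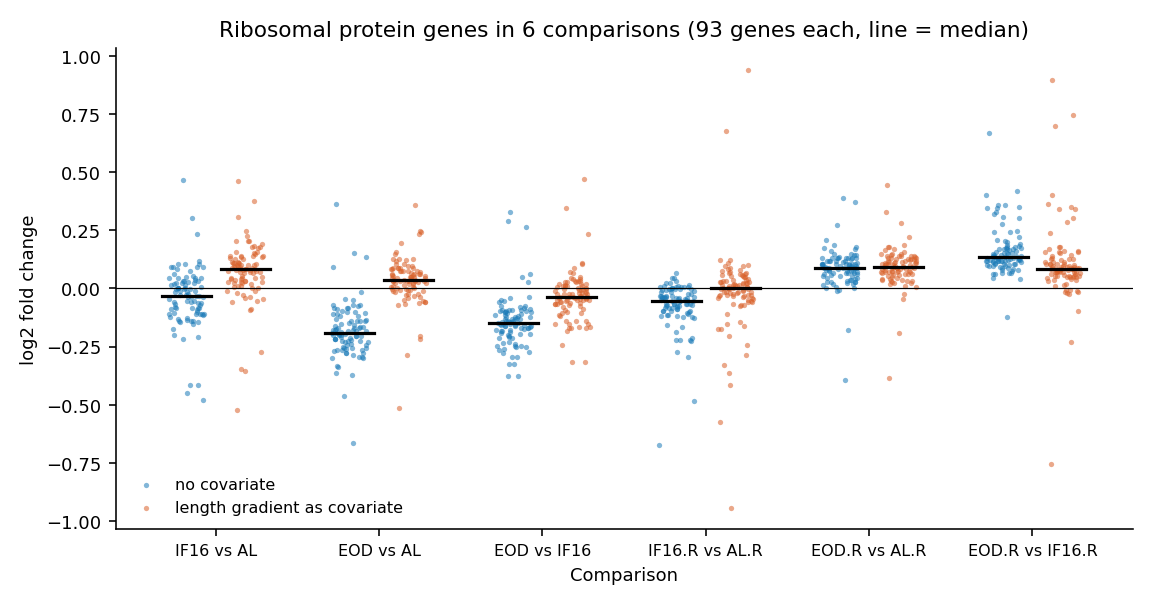
Log2 fold changes (y axis) of the 93 members tested in each of 6 comparisons (x axis), fitted without a covariate (blue) and with the length gradient of each library as a covariate (orange). Points are genes and black lines medians: for EOD against AL the median is -0.19 without the covariate and 0.038 with it, and for refed EOD against refed AL it is 0.09 without and 0.094 with it.

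The members are short, with a median length of 813 bases (930 without -ps names) against 2500.5 over all protein-coding genes. The libraries differed in how counts depended on gene length. This was measured as a length gradient, the slope of log2 CPM on log2 length over the tested genes that are not members, set relative to the mean of the table, so that a higher value means relatively fewer counts on short genes. At the end of the regimens AL libraries had gradients of -0.157 to 0.0578, IF16 libraries of -0.112 to 0.0643 and EOD libraries of -0.0158 to 0.137. Over these 15 libraries it followed the mean log2 CPM of 84 members (those tested, without -ps names and Rps19bp1) with r = -0.95 and rho = -0.868, and with r = -0.895 without the 2 farthest libraries. After refeeding it was -0.0258 to -0.004 in refed AL, 0.0042 to 0.0415 in refed IF16 and -0.0259 to 0.0104 in refed EOD, and the relation was r = -0.608, rho = -0.679 and r = -0.527 in the same order. The gradient of every refed IF16 library was above that of every refed AL library, so length and group are partly tied in that comparison. The correlations describe libraries that share depth and base composition, and the part of the gradient in the members' values beyond the fits given here was not tested.

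**Figure D3:**
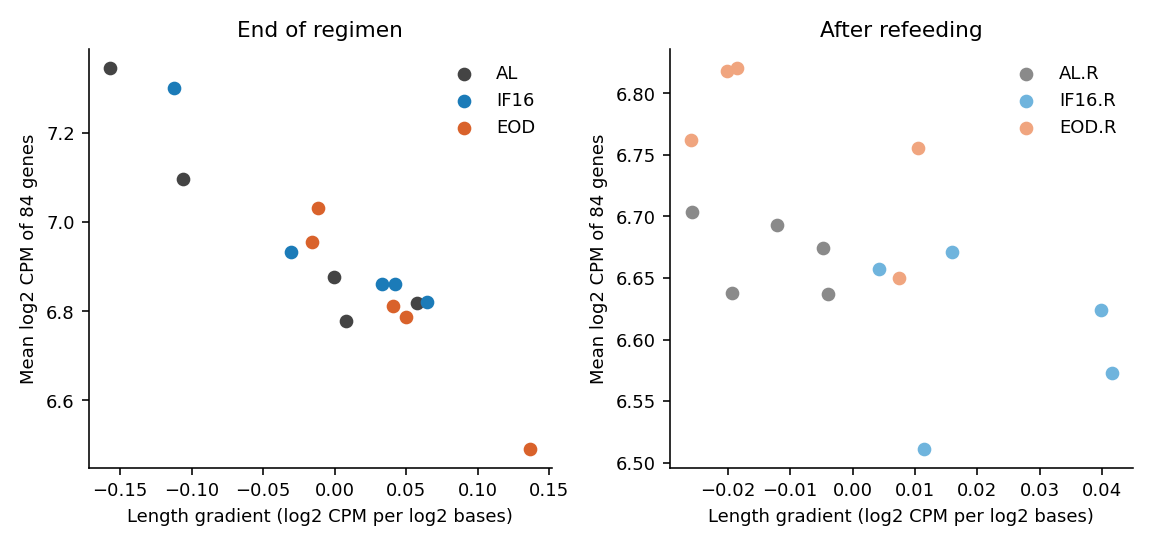
Mean log2 CPM of 84 members (y axis) against the length gradient of the library (x axis, change in log2 CPM per log2 base), with 15 libraries at the end of the regimens (left) and 15 after refeeding (right). Each point is a library, coloured by group: on the left the points fall along a line (r = -0.95), and on the right they scatter more (r = -0.608) and 4 of 5 refed EOD libraries lie at the top. Refed groups carry the suffix R on the axes and keys of all plots.

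With the gradient as a covariate, no member was called at the end of the regimens. The median became 0.083 in IF16 against AL with 78 of 93 members above 0, and 15 members then had an unadjusted p under 0.05 in the higher direction (7.26% of all genes). It became 0.038 in EOD against AL with 68 above 0, and -0.035 in EOD against IF16 with 29 above 0. Without AL replicates 4 and 5, IF16 replicate 1 and EOD replicate 4, the 4 libraries of extreme gradient, the medians were 0.047, 0.059 and 0.018.

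After refeeding, Rpl38 and Rpl41 were the members called, both lower in refed IF16 than in the 2 other groups. Rpl38 is a small protein at the surface of the large subunit, known from mice in which its loss changes the translation of Hox mRNAs in the embryo. It lies on chromosome 11 (114668524 to 114672331, plus strand, mm10 per the submitters' processing notes). Its CPM (counts per 1e6 reads, scaled by TMM within a table) was 75.1, 74.5, 82.6, 80.0 and 74.1 in refed AL. The refed IF16 libraries had 65.0, 68.9, 63.8, 65.0 and 67.3 CPM, and those of refed EOD 76.1, 88.0, 80.1, 83.4 and 87.2. Every refed IF16 library lay below every library of the other 2 groups. Its log2 fold change was -0.23 (SE 0.0445, adjusted p = 0.0435) in refed IF16 against refed AL and 0.33 (SE 0.0445, adjusted p = 0.00888) in refed EOD against refed IF16.

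Rpl41 encodes one of the smallest known proteins, which bridges the subunits, and lies on chromosome 10 (128548114 to 128549305, minus strand). Refed AL libraries were at 151, 138, 154, 153 and 150.0 CPM. The CPM was 121, 135, 129, 128 and 128 for refed IF16, and 141, 155, 156, 150.0 and 160.0 for refed EOD. Again all 5 refed IF16 libraries were below the others, by a small margin between refed IF16 replicate 2 and refed AL replicate 2. The log2 fold change was -0.22 (SE 0.0405, adjusted p = 0.0312) in refed IF16 against refed AL and 0.25 (SE 0.0406, adjusted p = 0.0406) in refed EOD against refed IF16. These comparisons share the refed IF16 libraries.

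The calls rested on thin margins. Leaving out each of the 10 libraries of refed IF16 and refed AL in turn, Rpl38 was called in none of the 10 fits (log2 fold change -0.245 to -0.198, adjusted p 0.0529 to 0.179), and Rpl41 in 2 (-0.244 to -0.198, adjusted p 0.0388 to 0.109). For refed EOD against refed IF16, Rpl38 was called in 8 of 10 fits, with an adjusted p of 0.061 when refed IF16 replicate 3 was left out and of 0.0502 when refed EOD replicate 2 was. Rpl41 was called in 3 of 10 (0.228 to 0.273, adjusted p 0.00594 to 0.168). Fitted with the gradient as a covariate, neither was called, at -0.175 and -0.145 in refed IF16 against refed AL (adjusted p = 0.999 for both) and 0.284 (adjusted p = 0.789) and 0.18 (adjusted p = 0.998) in refed EOD against refed IF16. No gene at all was called in either comparison of that fit. The gradients of refed IF16 and refed AL did not overlap, so the fit cannot fully separate length from group there.

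**Figure D4:**
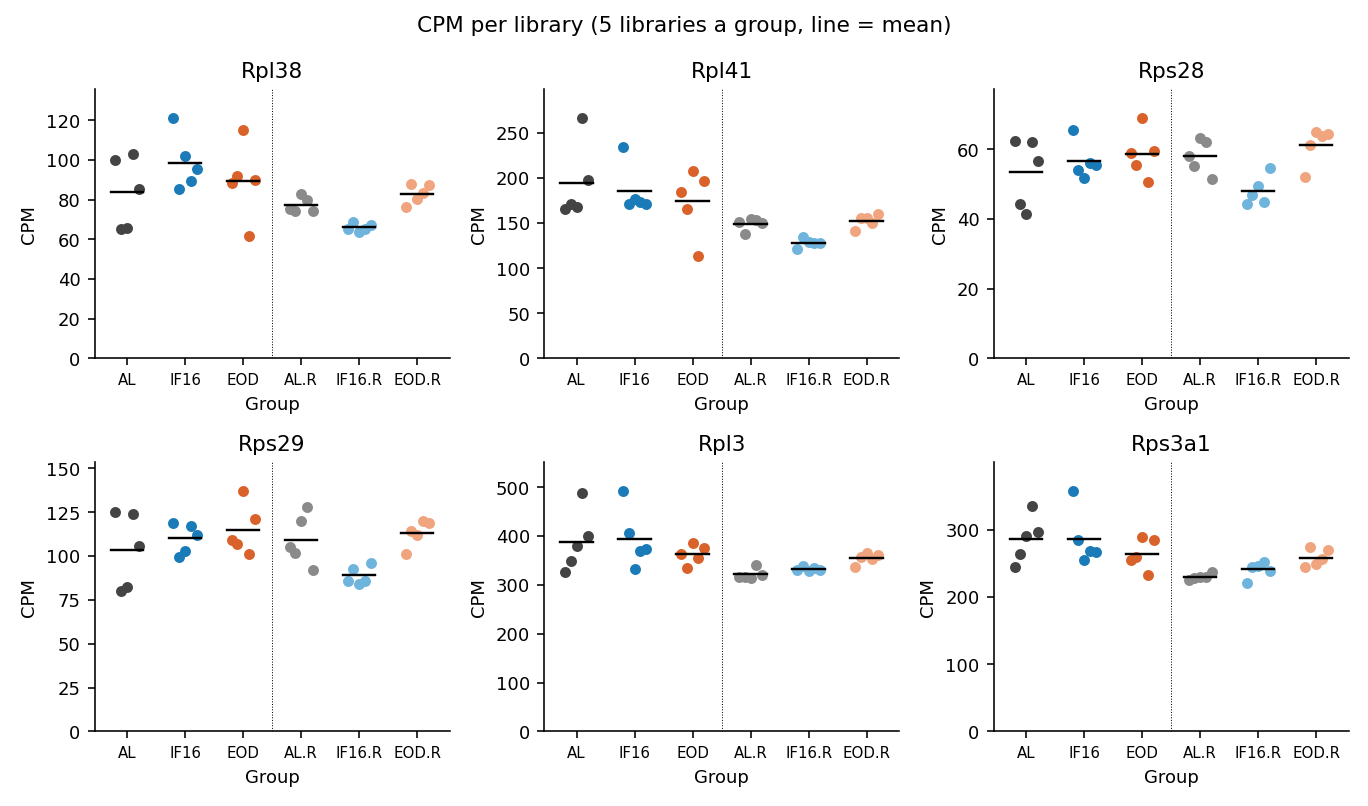
CPM (y axes, from 0) of 6 members in each library of the 6 groups (x axes). Points are the 5 libraries in replicate order and black lines the group means, with a dotted line between the tables: the refed IF16 libraries of Rpl38 (63.8 to 68.9 CPM) lie below all refed AL and refed EOD libraries, and Rps3a1 in refed EOD (244 to 274 CPM) lies above all refed AL libraries.

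In refed IF16 against refed AL the 2 calls among 93 members stood beside 0.103% of all genes called lower, and no member was called higher. DESeq2 called 4 members lower (0.328% of all genes): Rps29, Rpl38, Rps28 and Rpl41. The members' median was -0.052 (all genes -0.0023), and 16 of 93 were above 0 (48.8% of all genes). Of the members, 19 had an unadjusted p under 0.05 in the lower direction (4.83% of all genes). Groups did not overlap for 5 members, all lower (1.11% of all genes, and 1.07% higher): Rpl38, Rpl41, Rps18, Rpl37a and Rpl23a. The small subunit genes Rps29 and Rps28 had log2 fold changes of -0.295 (adjusted p = 0.139) and -0.27 (adjusted p = 0.167). At the ends of the range were Rps10-ps1 (-0.67) and Rpl27-ps3 (-0.49), and Rps3a1 (0.066) and Rpl3 (0.047). With the gradient as a covariate the median was 0.002 and 48 members were above 0, and no gene, member or other, was called.

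Refed EOD against refed IF16 showed the most uniform direction of the 6 comparisons within a table. Of 93 members, 92 were higher in refed EOD, where 52.1% of all genes were, with a median of 0.13 (all genes 0.0044). The 2 calls, Rpl38 and Rpl41, stood among 3 genes called higher in all (0.0182%). An unadjusted p under 0.05 was found for 65 members in the higher direction (4.99% of all genes) and for none in the lower direction. The groups did not overlap for 8 members, all higher in refed EOD (0.791% of all genes, and 0.474% lower): Rpl38, Rpl41, Rps26, Rpl22, Rps29, Rps21, Rpl37 and Rpl23a. DESeq2 called 22 members higher, and 0.334% of all genes.

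Among the members of this comparison that missed the threshold, Rps28 had a log2 fold change of 0.35 (SE 0.07, adjusted p = 0.115) and Rps29 of 0.35 (SE 0.0724, adjusted p = 0.119). Rps28 CPM was 44.2, 46.9, 49.6, 44.8 and 54.5 in refed IF16 and 51.9, 61.1, 64.9, 63.7 and 64.4 in refed EOD, so that the groups overlapped by refed EOD replicate 1. Rps26, at the mRNA exit of the small subunit, was at 67.3, 76.5, 72.3, 73.1 and 74.8 CPM in refed IF16 and 78.0, 83.4, 90.6, 83.3 and 89.0 in refed EOD, without overlap (0.22, adjusted p = 0.115). The extremes were Rps10-ps1 (0.67) and Rpl3l (0.42), and Rpl23a-ps3 (-0.12) and Rps2 (0.041). With the gradient as a covariate the median was 0.085 with 83 members above 0 and 19 at an unadjusted p under 0.05 in the higher direction (2.52% of all genes), and no gene was called. Leaving out refed EOD replicate 1, the test called 19 members. It called 0 when refed IF16 replicate 3 was left out, and again 0 when refed EOD replicate 2 was. A fit of these 2 groups alone also called 0, with 60 members at an unadjusted p under 0.05 in the higher direction. The shares over all genes in the left-out and 2-group fits are not reported here. Whether other genes moved alike cannot be read from these counts.

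Refed EOD against refed AL called no member (0.0426% of genes were called, 0.0243% higher and 0.0182% lower). Of 93 members, 88 were above 0 (50.3% of all genes), with a median of 0.09 beside 0.0007 over all genes. An unadjusted p under 0.05 was found for 28 members in the higher direction (4.51% of all genes) and none in the lower (3.99%). DESeq2 called 2 members higher, Rps3a1 and Rpl3 (0.243% of all genes). Rpl3, which reaches into the peptidyl transferase centre, was at 316, 316, 315, 341 and 320.0 CPM in refed AL and 337, 357, 366, 354 and 361 in refed EOD, with overlap only through refed AL replicate 4 (0.14, SE 0.0323, adjusted p = 0.171). Rps3a1, a small subunit protein at the mRNA exit, was at 225, 228, 230.0, 229 and 237 CPM in refed AL and 244, 274, 249, 256 and 269 in refed EOD, without overlap (0.17, SE 0.0403, adjusted p = 0.171). Rpl35a was the other member without overlap (0.949% of all genes did not overlap in this direction), at 135 to 139 CPM in refed AL and 142 to 163 in refed EOD (0.17, adjusted p = 0.291). The extremes were Rpl3l (0.39) and Rps26-ps1 (0.37), and Rpl27-ps3 (-0.39) and Rpl23a-ps3 (-0.18).

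The length gradients of refed EOD and refed AL overlapped, and the covariate left this comparison where it was. The median was 0.094, 89 members were above 0 and 37 had an unadjusted p under 0.05 in the higher direction (4.76% of all genes), with no gene called. Leaving out each library in turn moved the median between 0.07 and 0.121 and gave no call. Refed EOD against refed AL and refed EOD against refed IF16 share the refed EOD libraries, and both comparisons with refed AL share that group.

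Members were set beside other protein-coding genes of their own length. In refed IF16 against refed AL the medians were close below 1500 bases: -0.144 for 14 members and -0.146 for 61 other genes under 500 bases, -0.066 for 43 members and -0.079 for 635 other genes of 500 to 999 bases, and -0.032 and -0.035 at 1000 to 1499. Longer members lay below genes of their length, with -0.035 against -0.024 at 1500 to 1999 bases, -0.033 against -0.01 at 2000 to 2999, -0.054 for 2 members against 0.009 at 3000 to 4999, and -0.077 for 1 member against 0.035 at 5000 or more. In refed EOD against refed AL the members were higher at each length, with 0.08 against 0.001 under 500 bases, 0.101 against 0.021 at 500 to 999, 0.082 against 0.02 at 1000 to 1499, 0.068 against 0.006 at 1500 to 1999 and 0.098 against 0.001 at 2000 to 2999. The 2 members of 3000 to 4999 bases had a median of 0.073 against -0.001, and the 1 longer member was at 0.027. Refed EOD against refed IF16 combined both patterns: 0.263 against 0.15 under 500 bases, 0.144 against 0.097 at 500 to 999 and 0.112 against 0.014 at 2000 to 2999. Within 84 members, log2 fold change followed length with a Spearman rho of 0.443 in refed IF16 against refed AL, -0.551 in refed EOD against refed IF16 and -0.129 in refed EOD against refed AL. These correlations run across genes, which do not replicate one another, and are descriptions. Shorter members tended to lie lower in refed IF16. Rpl38 (457 bases), Rps29 (461) and Rpl41 (695) are short members, and so is Rps27 (255), which was at -0.088 in refed IF16 against refed AL.

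**Figure D5:**
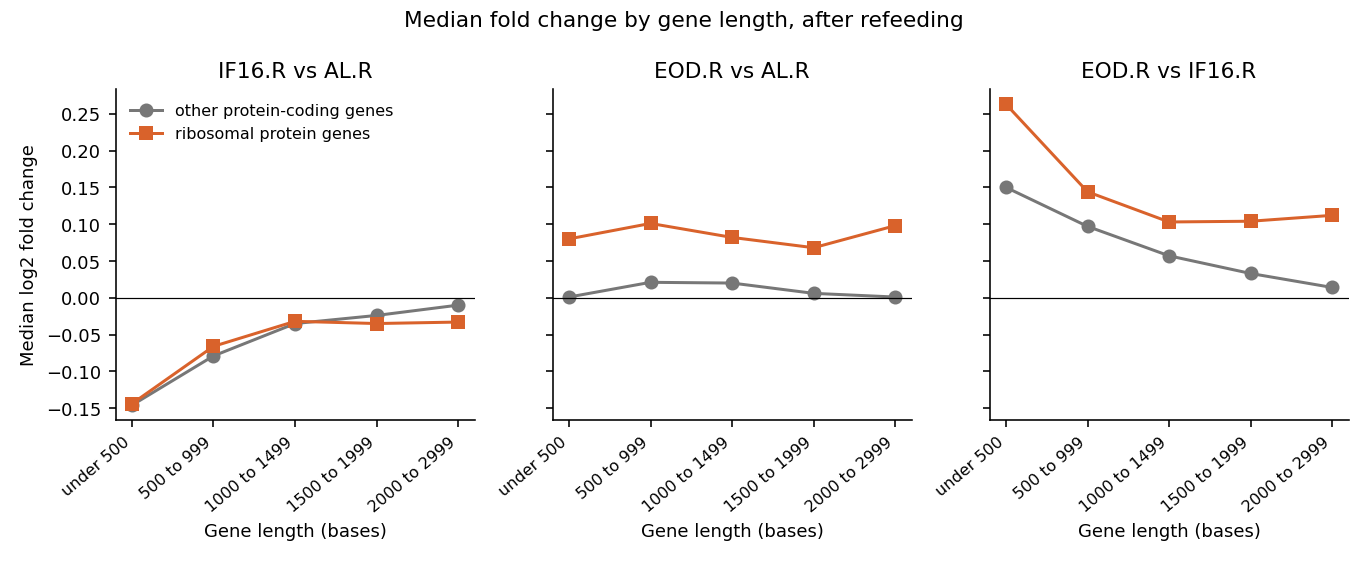
Median log2 fold change (y axis) by gene length in bases (x axis, genes under 3000 bases) after refeeding, for the members (orange squares) and the other protein-coding genes tested (grey circles). In refed IF16 against refed AL the lines are close under 1500 bases, from -0.144 and -0.146 upward, and end at -0.033 for the members and -0.01 for the others. In refed EOD against refed AL the members lie between 0.068 and 0.101 and the others between 0.001 and 0.021 in the 5 length classes drawn.

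By subunit, refed EOD against refed AL had all 43 large subunit genes above 0 with a median of 0.097 and all 31 small subunit genes above 0 with a median of 0.094. The 3 stalk genes were nearer to 0, with Rplp0 at 0.023, Rplp1 at 0.047 and Rplp2 at 0.007 (adjusted p = 0.934, 0.856 and 0.986). Rpsa, the laminin receptor of the small subunit, was at 0.002, and its CPM of 238 to 282 in refed EOD overlapped that of 245 to 283 in refed AL. Rps6, the small subunit protein that S6 kinases phosphorylate, was at 0.12 (adjusted p = 0.46). Its CPM was 155, 146, 147, 148 and 152 in refed AL and 148, 168, 168, 163 and 165 in refed EOD, so 4 of 5 refed EOD libraries lay above all refed AL libraries. Rpl5 and Rpl11, which bind Mdm2 together with ribosomal RNA when assembly fails, were at 0.11 (adjusted p = 0.412) and 0.091 (adjusted p = 0.595). Rps4x, encoded on the X chromosome, was at 0.16 (adjusted p = 0.263), Rps27a, made as a fusion with ubiquitin, at 0.12 (adjusted p = 0.457) and Rpl26, at the tunnel exit, at 0.13 (adjusted p = 0.412). Rpl4 and Rps3 (both 0.086), Rps19 (0.067), Rpl22 (0.061), Rpl10a (0.04) and Rpl10 (0.02) lay lower in the range. Rps14 was at 0.098 and Rpl39, which lines the exit tunnel, at 0.076.

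The members were also read by their promoter features. The median log2 fold change in refed EOD against refed AL was 0.09 for the 30 subunit genes with a pyrimidine run and 0.089 for the 27 without. In refed EOD against refed IF16 it was 0.132 and 0.126, and in refed IF16 against refed AL -0.046 and -0.05. Genes with CCGGAAG had a median of 0.146 and those without it 0.119 in refed EOD against refed IF16. These medians were not tested.

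The paralogs were expressed at low to moderate levels and none was called in the 6 comparisons. Rpl22l1, the paralog of the RNA-binding Rpl22, had a level of 86.4 ± 3.75 FPKM in refed AL, of 82.9 ± 6.93 after IF16 and refeeding, and of 90.6 ± 7.81 in refed EOD (SD, n = 5), above Rpl22 itself (mean 45.1 over the groups). Rpl36al was at 46.7 ± 1.17, 42.5 ± 3.64 and 46.5 ± 4.34 FPKM in the same order. The annotated lengths of Rpl22l1 and Rpl22 are 489 and 2051 bases, so which of them stands higher in FPKM depends on length. Rps27l, Rpl7l1 and Rps4l had means of 24.3, 22.2 and 16.5 FPKM over the groups, and Rps27rt, a copy of Rps27 without introns, 8.82. Rpl3l, known from skeletal muscle and heart, stood at 0.26 FPKM, and Rpl39l, known from testis, at 0.0169. The 7 paralogs tested had a median of 0.09 in refed EOD against refed AL. The -ps names stayed low, with a median of 0.188 FPKM and a highest value of 4.39.

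Whether the difference between a regimen and its controls changed from the end of the regimen to the end of refeeding was tested with an interaction in a fit of all 30 libraries. No member was called for IF16 (0.0474% of genes were called, 0.0296% higher) or EOD (0.0119%). For IF16 the median was -0.022, with 4 members at an unadjusted p under 0.05 in the lower direction (3.28% of all genes) and none in the higher. Rpl3l (0.45) and Rpsa-ps10 (0.38) were highest, and Rpl24 (-0.59) and Rpl38 (-0.46, adjusted p = 0.559) lowest. For EOD the median was 0.28, 90 of 93 members were above 0 (51.0% of all genes), and 31 had an unadjusted p under 0.05 in the higher direction (5.48% of all genes). Rps10-ps1 (0.66) and Rpl3l (0.57) were highest, and Rps29 (-0.11) and Rpl24 (-0.092) lowest. The EOD median was 0.06 with the gradient as a covariate and 0.029 without the 4 libraries of extreme gradient. The members with an unadjusted p under 0.05 in the higher direction were then 2 (3.22% of all genes) and 0 (3.34%). DESeq2 called no member in either interaction.

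The never-fasted groups differed between the tables. Refed AL against AL called 62 members lower and 2 higher, beside 12.4% and 11.5% of all genes. The members' median was -0.36 (all genes -0.0123), and the groups did not overlap for 48 members that were lower (4.75% of all genes) and 1 that was higher (4.97%). Age, the table and anything else that differed between the sets of libraries cannot be told apart here. Rps27 fell by 0.75 on the log2 scale (SE 0.116, adjusted p = 0.000809), from 154, 145, 153, 193 and 171 CPM in AL to 89.1 to 101 in refed AL. Rpl39 fell by 0.62 (SE 0.0999, adjusted p = 0.000979), from 76.9 to 111 CPM in AL to 58.0 to 61.8 in refed AL. Neither had overlapping groups. The CPM printed here and in the next paragraph are scaled within each table, whereas fold changes and overlap between groups come from the joint fit. Among the paralogs, Rpl22l1 fell by 0.57 (adjusted p = 0.00333), and Rpl3l was at -0.79 (adjusted p = 0.0538).

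Rpl23a and Rpl35, which lie at the exit of the tunnel, went the other way. Rpl23a rose by 0.50 (SE 0.108, adjusted p = 0.00517), from 6.01, 4.88, 4.08, 7.03 and 5.66 CPM in AL to 8.0, 7.85, 7.4, 8.86 and 7.11 in refed AL. Rpl35 rose by 0.475 (SE 0.173, adjusted p = 0.0453), from 9.99 to 19.4 CPM in AL to 15.3 to 20.5 in refed AL, with overlap through AL replicate 4. Both belong to the subunit genes with the lowest FPKM. With the gradient as a covariate 4 of the 64 calls were made again, Rps27 (-0.45), Rpl39 (-0.35), Rpl23a (0.69) and Rpl35 (0.805), and the members' median was -0.041. Of all genes, 0.764% were then called lower and 0.61% higher. Of the 64 called members, 6 had the other sign under the covariate. Without AL replicate 4 the test called 21 members lower and 2 higher, without AL replicate 5 it called 34 and 1, and without the 4 libraries of extreme gradient 23 and 2 (1.32% and 1.05% of all genes). For the fits without AL replicate 4 or 5 the shares over all genes are not reported here. Rpl35 was called in 2 of the 10 fits that left out a library of these groups.

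The neighbours of the members in the pathway were read from lists of other genes. Fau and Gnb2l1, which lie outside the symbol rule, had 0 calls in the 6 comparisons within a table. So had 19 other mRNAs of the pyrimidine-run class, mainly translation factors. In refed EOD against refed AL, 6 of them had an unadjusted p under 0.05, all higher (4.51% of all genes). Their median was 0.063 and 17 of 19 were above 0. In refed IF16 against refed AL the members' median was -0.052, while that of these 19 was 0.02, with 13 above 0. There 4 had an unadjusted p under 0.05 in the higher direction (4.76% of all genes) and 1 in the lower (4.83%). The elongation factors Eef1a1 and Eef2 were at 644 ± 19.3 and 508 ± 7.19 FPKM in refed EOD and 602 ± 20.5 and 507 ± 13.7 in refed AL (SD, n = 5). For 31 genes of ribosome assembly the median in refed EOD against refed AL was 0.012, with none at an unadjusted p under 0.05. For 22 genes of mTORC1 signalling the median was 0.014, with 2 higher and 1 lower at that threshold. In refed AL against AL, Fau (-0.415) and Gnb2l1 (-0.27) were called lower, with 9 of the 19 mRNAs of the pyrimidine-run class called lower and 2 higher.

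Within the tissue, the defining markers of granule and Purkinje cells were present, with a median of 186 FPKM for 10 granule cell genes and 191 for 10 Purkinje cell genes. Choroid plexus genes varied from library to library, between 154.1 and 5119 summed CPM over 11 genes. After refeeding their sum and the members' mean gave r = 0.024, rho = 0.05 and r = -0.097 without the 2 farthest of 15 libraries. The values at the end of the regimens were r = 0.274, rho = 0.279 and r = 0.272. At the end of the regimens the summed CPM of 10 microglia genes and the members' mean gave r = 0.761, rho = 0.618 and r = 0.605 in the same order, and after refeeding r = 0.076. For 10 oligodendrocyte genes the values at the end of the regimens were r = 0.526 and rho = 0.514. Without the 2 farthest libraries r was 0.089, so that relation rests on those libraries. After refeeding the values were r = 0.234, rho = 0.271 and r = 0.548 in the same order. For the granule cell genes after refeeding they were r = -0.581, rho = -0.468 and r = -0.371. In refed EOD against refed AL, 5 of 10 oligodendrocyte and 5 of 10 astrocyte genes had an unadjusted p under 0.05, all higher. Of all genes, 4.51% did so. Gja1, a gap junction protein of astrocytes, was called (0.27, adjusted p = 0.0427). In refed IF16 against refed AL, where the members' median was -0.052, Gja1 (0.31, adjusted p = 0.0116) and Aqp4 (0.23, adjusted p = 0.0374) were called higher. There 3 of the oligodendrocyte and 4 of the astrocyte genes had an unadjusted p under 0.05, all higher (4.76% of all genes). The medians of the 2 lists were 0.131 and 0.081, beside 0.146 and 0.079 in refed EOD against refed AL. The summed CPM of the 10 astrocyte genes was 3677 to 4121 in refed AL, 4014 to 4276 in refed IF16 and 4078 to 4341 in refed EOD. All 5 red blood cell genes had an unadjusted p under 0.05 in the lower direction in refed EOD against refed AL (3.99% of all genes). In refed IF16 against refed AL, 2 of them did (4.83%). The part of these cell types in the members' values was not tested.

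The members moved together from library to library. The median Pearson correlation of log2 CPM between pairs of 84 members was 0.865 over the 15 libraries at the end of the regimens and 0.704 after refeeding, and 0.873 and 0.621 after the group means were taken out. Of all pairs, 96.5% and 98.3% had a correlation above 0. The members that followed the others least were Rpl3l (-0.188), Rpl24 (-0.027) and Rps29 (0.418) at the end of the regimens and Rps27rt (0.062), Rpl24 (0.2) and Rps4l (0.34) after refeeding. Rpl3l (0.26) and Rpl24 (0.967) are also listed below 1 FPKM. Outside the members, the genes most like their mean log2 CPM at the end of the regimens, among 11518 with at least 5 CPM, were Pfdn5 (r = 0.991), Uqcc2 (0.986), Ndufs4 (0.983), Sod1 (0.98) and Cbr1 (0.979). After refeeding they were Tmsb4x (0.961), Tmsb10 (0.959), Uqcr11, Ndufa4 (both 0.939) and Ndufs4 (0.938), among 11495. These 9 genes have lengths of 492 to 1534 bases, and the correlations are descriptions over 15 libraries that share depth and length gradient.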

How the data were processed

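RNA-seq of cerebellum was analysed in 30 libraries, 5 in each of 6 groups, mapped by their labels, and 12 chromatin samples were not analysed here. For each of the 2 sets of 15 libraries (regimen end, and after refeeding) the authors deposited a table of raw read counts and a table of FPKM. Per the submitters' processing notes the tools were STAR 2.5, HTSeq 0.6.1 and DESeq2 2 with build mm10. The use of strand, the annotation release and the handling of reads that map to several places are not given in the sources used here. FPKM equals counts per length and library total, and was used for levels between genes only.

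Tests on the deposited counts used edgeR 4.0.16 under R 4.3.3 (quasi-likelihood, TMM, filterByExpr by group, Benjamini-Hochberg over all genes tested, threshold 0.05), with 1 fit for the 15 libraries of each table and 1 joint fit for the interactions and refed AL against AL. The edgeR test was checked on simulated counts for refed EOD against refed AL, with noise drawn independently for each gene. That simulation held no shared length gradient and no correlation between members, so it does not check the tests for these. Log2 CPM used a prior count of 2. No p was computed for scores over the members. Alternatives were DESeq2 1.42.0, other scalings and filters, the length gradient as a covariate, the replicate number as a block, and left-out libraries. Pairs of libraries of 1 group differed beyond sampling noise (chi-square per degree of freedom 4.25 to 135 over 60 pairs). The members and lists were chosen with earlier results of these data known. Members are named when they were called, had the 2 highest or 2 lowest fold changes of a comparison, are paralogs, have a role of interest, stand at the ends of the levels or follow the others least. Of the 64 members called between refed AL and AL, only a few are described singly. Rps18, Rpl37a, Rps28, Rps29, Rps26, Rps21, Rpl37, Rpl35a and Rps3a1 were named after their values were seen where no part of this rule covers them. Sequences are from RefSeq (GRCm38.p6). Libraries held 26799825 to 36167435 counts. Counting error is a larger share of the spread for low members such as Rpl24, Rpl3l and the copies with -ps names than for the abundant members. Single values of some genes are not reported here.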

Additional observations from a re-analysis of the deposited data

Results flagged for a closer look

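A library was taken as far from its group where its gap to the nearest of the other 4 exceeded 0.71 of the group's range, which chance alone gives in about 1 in 20 groups. The members' share of counts and the length gradient were screened in the 6 groups, and so was the CPM of 27 members. This flagged 20 values in 174 groups of values, and several can come from the same library. As the members moved together, the groups of values are not independent.

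IF16 replicate 1 was high in the members' share of counts (1.84%, others 1.33 to 1.42%) and in the CPM of Rpl41 (234), Rps3a1 (357), Rps27 (213), Rpl39 (120.0), Rplp1 (371), Rplp2 (183), Rpl35a (216), Rpl37 (190.0) and Rps21 (270.0). Rpl35 stood apart in 3 libraries, with 19.4 CPM in AL replicate 4, 5.33 in IF16 replicate 3 and 17.5 in EOD replicate 5. In refed AL, Rpl41 was low in replicate 2 (138 CPM), Rps27 low in replicate 4 (89.1) and Rpl3 high in replicate 4 (341). In refed IF16, Rplp0 was low in replicate 1 (171 CPM) and Rpl22 low in replicate 5 (81.5). In refed EOD, replicate 1 was low in Rps6 (148 CPM) and Rpl37 (103).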

How the results depend on the processing

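Among the 6 comparisons within a table and the 2 interactions, the members' medians under whole alternatives kept within 1 SD of the libraries' mean member level (0.215 log2 units at the end of the regimens, 0.058 after refeeding, 0.157 jointly) except in 2 of them. EOD against AL gave 0.038 with the length gradient, alone or with the replicate block, and 0.059 without the 4 libraries of extreme gradient. The EOD interaction gave 0.06, 0.061 and 0.029 in the same order. The median of refed AL against AL (-0.36) was -0.041, -0.039 and -0.172. The SD was larger than several of the medians, so a median kept within it could still change sign. With the length gradient IF16 against AL went from -0.033 to 0.083, and refed IF16 against refed AL from -0.052 to 0.002. Without the 4 libraries EOD against IF16 went from -0.148 to 0.018. Leaving out 1 library gave medians of -0.133 to 0.063 in IF16 against AL, -0.247 to -0.093 in EOD against AL (-0.093 without AL replicate 4), -0.212 to -0.05 in EOD against IF16 (-0.05 without IF16 replicate 1), and -0.113 to 0.081 in the IF16 interaction. Counts of called members moved as follows, and the cause was not tested. In refed IF16 against refed AL, 4 were called by DESeq2 and 0 with the length gradient, with or without the replicate block. No gene at all was called with the gradient alone, and 0.00608% of genes were called lower with the block added. In refed EOD against refed AL, 2 were called by DESeq2 and 8 with the gradient and replicate block together (0.493% of all genes then called higher and 0.553% lower). In refed EOD against refed IF16, 22 were called by DESeq2, 4 with library totals only, 13 with the replicate block (0.152% of all genes then called higher and 0.0912% lower), 0 with the gradient (with or without the block) and 0 in a fit of the 2 groups alone. In refed AL against AL, 4 were called with the gradient, 8 with gradient and block and 25 without the 4 libraries. With gradient and block 1.75% of all genes were called higher and 1.71% lower. Leaving out 1 library gave 0 to 2 calls in refed IF16 against refed AL, 0 to 19 in refed EOD against refed IF16 and 23 to 71 in refed AL against AL. Shares over all genes are not reported here for single left-out libraries, library totals only or the 2 groups alone. Refed IF16 against refed AL kept 1 call without refed AL replicate 2, refed IF16 replicate 1, refed EOD replicate 3 or refed EOD replicate 4, and had 0 without any 1 of the other refed AL and refed IF16 libraries. Library totals only left 6.5% of members above 0 in refed IF16 against refed AL, against 17.2% with TMM.

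Among named members, the direction changed with the length gradient, and with gradient and block, in refed EOD against refed IF16 for Rpl3l (-0.231 and -0.279) and Rps2 (-0.019 and -0.02). In refed AL against AL, among the members reported here, it changed for Rpl11 (0.028 and 0.027), Rpl13 (0.02 and 0.022), Rps14 (0.011 and 0.018), Rps16 (0.019 and 0.017) and Rps18 (0.009 and 0.014). Leaving out 1 library at a time moved Rpl24 in the EOD interaction from -0.233 (without refed EOD replicate 1) to 0.027 (without EOD replicate 2). Deviations of same-numbered libraries correlated at -0.534 to 0.322 (median -0.044) at the end of the regimens and at -0.055 to 0.427 (median 0.104) after refeeding, and 7 of 30 libraries were closest to their own number. Different-numbered libraries gave -0.471 to 0.585 (median -0.002) and -0.336 to 0.318 (median -0.0415) at the 2 times. After refeeding, same-numbered libraries were thus more alike by the median. No label says what a number marks, so the main fits did not take the numbers to pair the samples. Whether a number stands for a shared batch or day was not tested. With the replicate block, 9 members had an unadjusted p under 0.05 in the higher direction in the EOD interaction, against 31 without it.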
